A study of Mus musculus with 9 samples.

Results

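The genes described here are 9 genes of proximal T-cell receptor signalling, chosen by name: the CD3 chain genes Cd3e, Cd3d and Cd3g, the zeta chain gene Cd247, the kinase genes Lck, Fyn and Zap70, and the adaptor genes Lat and Lcp2. They are 9 of 17492 mouse protein-coding genes whose start could be read. The samples were thymus cells of a MYCN-driven T cell lymphoma in the C57BL/6J strain. Each of 7 antibodies, against H3K4me3, H3K27ac, p300, N-MYC, EZH2, SUZ12 and H3K27me3, was used for 1 library, and 2 input libraries had no peak list used here. All libraries carry the same disease and strain, so there is no comparison with normal T cells. The labels used here give no transgene promoter, Cre line, age or number of pooled animals, and do not say which animal gave each immunoprecipitation. Libraries were made by ChIPmentation, a chromatin immunoprecipitation in which a transposase inserts the sequencing adapters while chromatin is still on the antibody. With no replicate library, no value has an error over samples and no p-value is given.

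The T-cell receptor recognises antigen with chains that have no signalling tails of their own. Its signal passes through the CD3 and zeta chains, whose tails carry immunoreceptor tyrosine-based activation motifs. LCK phosphorylates these motifs, ZAP-70 docks on them, and ZAP-70 then phosphorylates the adaptors LAT and SLP-76 (the product of Lcp2), on which the downstream enzymes assemble. FYN is a Src-family kinase like LCK. Of the profiled features, H3K4me3 marks active promoters, H3K27ac and the acetyltransferase p300 mark active promoters and enhancers, EZH2 and SUZ12 are subunits of Polycomb repressive complex 2, and H3K27me3 is the mark that this complex deposits. Because the series, by its title, is about EZH2 acting as an activator, the promoters were read for EZH2 with and without N-MYC and the other Polycomb features.

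A peak was counted at a start when at least 1 bp of it lay within 1 kb of the start of the gene record in RefSeq (GRCm38.p6). The starts had 1 common pattern and 1 point of difference. All 9 genes had H3K4me3, H3K27ac, p300 and EZH2 peaks at the start, and none had SUZ12 or H3K27me3 (23.9% of all genes had either). Over all protein-coding genes, 49.6% had H3K4me3 there, 49.8% H3K27ac, 38.3% p300, 43.1% EZH2, 12.2% SUZ12 and 23.8% H3K27me3. The genes differed in N-MYC, which was called at 4 of the 9 starts (Lck, Fyn, Zap70 and Lat), against 31.6% of all genes. The 4 receptor chain genes and Lcp2 had the other features without N-MYC, a combination seen at 5.14% of all genes.

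The 250 bases before the start are shown for 6 promoters. They hold part of the sequence under the N-MYC peaks of Lat, Zap70 and Lck, and the sequence of promoters with no such peak. They were read from RefSeq (GRCm38.p6), run 5′ to 3′ on the strand of the gene, and lie at chr7:126369569-126369818, strand - for Lat, chr1:36761548-36761797, strand + for Zap70, chr4:129573642-129573891, strand - for the first start of Lck, chr4:129558373-129558622, strand - for its second start, chr9:44980432-44980681, strand - for Cd3g and chr11:34046678-34046927, strand + for Lcp2. Capitals mark every match, on either strand, to 8 motifs searched. The E-box that MYC and MAX can bind is CACGTG. The motif of RUNX factors is TGTGGT. E-proteins, the partners of many lineage factors, can bind CAGGTG. A further E-box that they can bind was searched as CAGCTG. The box of core promoters was searched as TATAAA. The motif of ETS factors was searched in the form CGGAAG alone. The cyclic AMP response element is TGACGTCA. The motif of GATA factors is AGATAA. A match says only that these letters are present.
Lat: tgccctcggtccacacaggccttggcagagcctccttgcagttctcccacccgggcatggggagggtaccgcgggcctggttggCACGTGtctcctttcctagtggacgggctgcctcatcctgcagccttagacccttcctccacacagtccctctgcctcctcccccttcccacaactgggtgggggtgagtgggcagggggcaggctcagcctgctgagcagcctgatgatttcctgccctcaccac
Zap70: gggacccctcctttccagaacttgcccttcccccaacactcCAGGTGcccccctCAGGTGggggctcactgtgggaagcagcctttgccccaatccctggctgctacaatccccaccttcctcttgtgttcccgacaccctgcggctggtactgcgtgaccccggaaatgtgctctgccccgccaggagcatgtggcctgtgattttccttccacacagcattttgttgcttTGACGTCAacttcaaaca
Lck first start: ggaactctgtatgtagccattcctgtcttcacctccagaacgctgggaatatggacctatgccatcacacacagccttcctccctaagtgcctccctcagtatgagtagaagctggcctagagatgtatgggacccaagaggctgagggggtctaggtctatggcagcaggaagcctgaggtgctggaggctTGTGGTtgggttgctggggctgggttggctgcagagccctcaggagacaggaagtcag
Lck second start: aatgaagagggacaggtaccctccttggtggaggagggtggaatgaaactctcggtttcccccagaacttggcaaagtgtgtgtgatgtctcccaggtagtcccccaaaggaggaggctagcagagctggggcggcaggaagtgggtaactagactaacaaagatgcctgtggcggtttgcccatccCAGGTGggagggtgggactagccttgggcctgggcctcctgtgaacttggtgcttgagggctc
Cd3g: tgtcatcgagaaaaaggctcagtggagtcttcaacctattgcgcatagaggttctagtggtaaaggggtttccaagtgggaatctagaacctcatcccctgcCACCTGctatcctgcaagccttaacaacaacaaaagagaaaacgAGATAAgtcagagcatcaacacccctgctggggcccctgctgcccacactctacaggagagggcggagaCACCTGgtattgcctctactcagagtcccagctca
Lcp2: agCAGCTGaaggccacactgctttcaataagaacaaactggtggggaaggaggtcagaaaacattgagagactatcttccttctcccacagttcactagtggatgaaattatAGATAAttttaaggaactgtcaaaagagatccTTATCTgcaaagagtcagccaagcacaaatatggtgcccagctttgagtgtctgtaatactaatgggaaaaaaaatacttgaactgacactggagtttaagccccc

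Lat was the 1 gene with CACGTG among the 12 windows that RefSeq gave for the 9 genes, against 6.63% of 21263 windows of protein-coding genes. The match lay at −166 to −161 from the start used for that window, inside the N-MYC peak of Lat. The summit of that peak, 231 bp downstream of the start of the gene record, lies outside the window. The Zap70 window held TGACGTCA at −18 to −11 from the start, also inside its N-MYC peak, and 1.92% of all windows hold that motif. The CAGGTG matches of that window, at −209 to −204 and −196 to −191, lay inside the same peak. The window of the first Lck start held TGTGGT under its N-MYC peak (12.4% of all windows), a motif also found at the second Zap70 start. The windows of Zap70, Lck and Fyn, the other genes with N-MYC at the start, held no CACGTG. The E-protein motif CAGGTG was found in 6 of the 12 windows (Cd3d, Cd3g, Cd247, the second Lck start and 2 of the 3 Zap70 starts), against 16.9% of all windows. The 1 window of Cd247 lies before its downstream start, 8.73 kb from the start of the gene record, which had N-MYC, and not before the start of the record. AGATAA was found at Cd3g and Lcp2 (8.81% of all windows). CAGCTG was found at Lcp2 alone (12.1%). TATAAA (11.6%) and CGGAAG (17.1%) were found in none of the 12. CGGAAG contains a CpG, and other forms of the ETS motif were not searched, so its absence does not show that ETS sites are missing. The windows of Cd3e and Fyn held no match to any of the 8, and no match overlapped a match to another motif.

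The promoters were also poor in CpG. The ratio of observed to expected CpG in the 250 bases was 0 at Cd3d and Lcp2, 0.0514 at the first Lck start, 0.344 at Cd3e and 0.794 at Fyn, with a median of 0.530 over all windows. Fyn, the kinase gene with expression in many tissues, was the 1 gene of the 9 above that median, with Cd247 again read at its downstream start. Its window had 21 CpG, against 0 to 7 in the windows of the other 8 genes.

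Fold enrichment is given next, as the authors' ratio of a peak over its background, for the strongest peak at each start. It ranks peaks within a list and is not compared between lists. Its percentiles are among the genes with a peak of that list at the start. H3K4me3 fold enrichment was 33.2 at Cd3e, 36.3 at Cd3d and Cd3g, 14.2 at Cd247, 24.3 at Lck, 26.6 at Fyn, 25.9 at Zap70, 32.7 at Lat and 26.5 at Lcp2. The median of these 9 values, 26.6, was that of all 8672 genes with a peak there, so the genes were ordinary in the height of this mark. H3K27ac fold enrichment was 19.0 at Cd3e, 25.8 at Cd3d and Cd3g, 14.9 at Cd247, 21.2 at Lck, 11.7 at Fyn, 23.6 at Zap70, 14.2 at Lat and 24.3 at Lcp2. The median of 21.2 stood above the 12.4 of all 8719 genes with H3K27ac, and Fyn was the 1 gene below it.

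**Figure D1:**
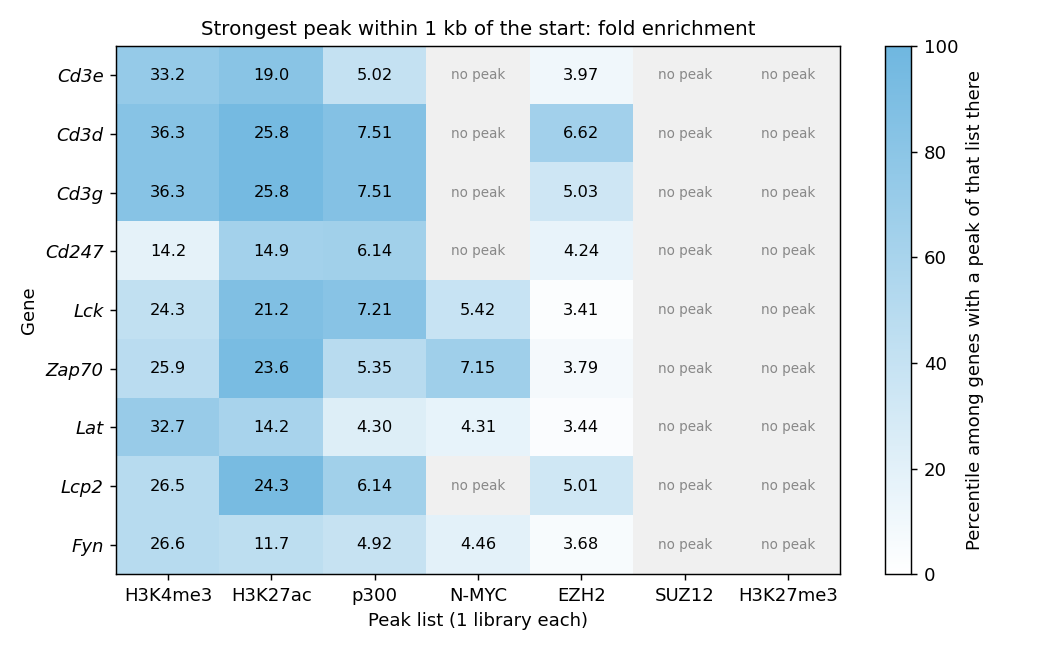
Strongest peak within 1 kb of the start for each of the 9 genes (rows) in each of the 7 lists (columns, 1 library each). Numbers are the authors' fold enrichment and the shade is the percentile among genes with a peak of that list there; EZH2 is present in every row at 3.41 to 6.62, N-MYC in 4 rows, and the SUZ12 and H3K27me3 columns are empty.

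The acetylated regions were also wide. The H3K27ac peak at the start measured 10.6 kb at Cd3d and Cd3g, 8.49 kb at Zap70, 7.39 kb at Lck, 4.85 kb at Lcp2, 4.66 kb at Lat and 4.08 kb at Cd3e. These 7 genes lay above the 90th percentile of H3K27ac peak width at starts, whose median was 2014 bp. Fyn (2714 bp) and Cd247 (2011 bp) were narrower. H3K4me3 widths ran from 1978 bp at Cd247 to 9066 bp at Cd3d and Cd3g. H3K4me3 was above the 90th percentile of width at Cd3d, Cd3g, Lcp2 (5768 bp) and Zap70 (4624 bp).

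p300 fold enrichment was 5.02 at Cd3e, 7.51 at Cd3d and Cd3g, 6.14 at Cd247 and Lcp2, 7.21 at Lck, 4.92 at Fyn, 5.35 at Zap70 and 4.30 at Lat. The median was 6.14, against 5.40 over the 6701 genes with p300 at the start, and 5 of the 9 genes lay above that. The p300 peak shared by Cd3d and Cd3g was 5317 bp wide, at the 99.7th percentile.

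EZH2 was present at all 9 starts but low. Its fold enrichment was 3.97 at Cd3e, 6.62 at Cd3d, 5.03 at Cd3g, 4.24 at Cd247, 3.41 at Lck, 3.68 at Fyn, 3.79 at Zap70, 3.44 at Lat and 5.01 at Lcp2. The median of 3.97 was below the 5.80 of the 7533 genes with EZH2 at the start, and 5 of the 9 genes (Cd3e and the 4 with N-MYC) were under the 10th percentile. Lat depended on the start used: from its promoter-table start, 137 bp downstream, the window reached a second EZH2 peak of 4.68, at the 25.5th percentile, which leaves 4 genes under the 10th. Cd3d was the 1 gene above the median. Because many of these peaks were close to the end of the list, the count depended on the threshold. With peaks of a q-value of at most 1e-05 it fell to 4 of 9 (Cd3d, Cd3g, Fyn and Lcp2), against 38.7% of all genes. With a fold enrichment of at least 4 it was also 4 of 9 (Cd247, Cd3d, Cd3g and Lcp2; 38.3% of all genes), and with lists of equal length 2 of 9 (Cd3d and Lcp2; 32.3%). The q-value and fold limits left the 4 N-MYC calls in place, against 29.5% and 28.5% of all genes. The N-MYC list is the shortest, so equal length removed none of its peaks and says nothing about its calls.

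EZH2 peaks were next set against the H3K4me3 of the same start. The 7469 genes with H3K4me3 and neither SUZ12 nor H3K27me3 at the start were ranked by H3K4me3 fold enrichment into 10 deciles. EZH2 was called at 7.90% of genes in decile 1 and at 96.1% in decile 10, and N-MYC at 33.2% and 85.4%. Cd3d and Cd3g fell in decile 9, Cd3e and Lat in decile 7, Zap70, Lcp2 and Fyn in decile 5, Lck in decile 4 and Cd247 in decile 2. EZH2 fold enrichment was under the 10th percentile of the genes with EZH2 in the same decile at 6 of the 9 genes. From the start of the gene record Lat was lowest, with 3.44 against a decile median of 5.71 (percentile 1.16). From its promoter-table start it had 4.68 (percentile 17.2), which leaves 5 genes under the 10th percentile of their decile. Lcp2 was the 1 gene above its decile's median, with 5.01 against 4.84.

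**Figure D2:**
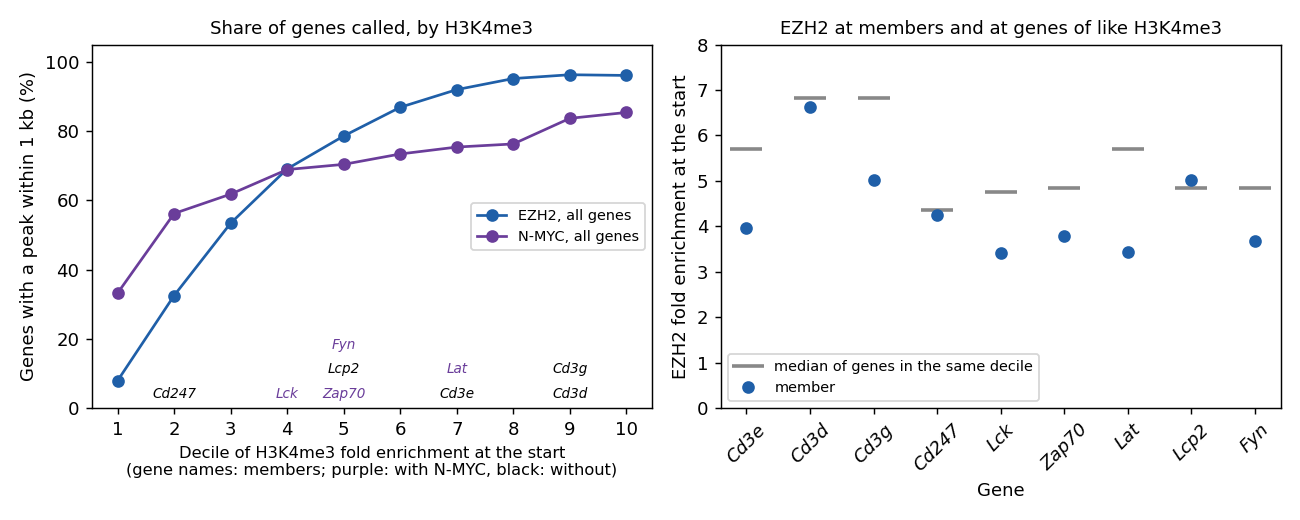
Left: share of genes with an EZH2 or N-MYC peak within 1 kb of the start, by decile of H3K4me3 fold enrichment, over 7469 genes with H3K4me3 and no SUZ12 or H3K27me3 there; names under the curves place the 9 genes, in purple with N-MYC and in black without. Right: EZH2 fold enrichment of each gene (points) and the median of genes with EZH2 in its decile (bars); 8 of the 9 points lie below their bar.

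N-MYC was the feature that divided the set. Its fold enrichment at the start was 5.42 at Lck, 7.15 at Zap70, 4.31 at Lat and 4.46 at Fyn, and the median of all 5536 genes with N-MYC there was 6.02. Zap70 was the 1 gene above it. Lck had a further and stronger N-MYC peak, of 7.84, with its summit at −1645 bp from the start. In the deciles of Cd3d, Cd3g and Cd3e, 83.7%, 83.7% and 75.4% of genes had N-MYC, in that of Lcp2 70.4% and in that of Cd247 56.2%, and these 5 genes had none. Among all genes with H3K4me3, H3K27ac, p300 and EZH2 and neither Polycomb feature at the start, 82.0% also had N-MYC, against 4 of these 9. Read over the whole H3K4me3 peak of the start, EZH2 came without N-MYC at the same 5 genes, Cd3e, Cd3d, Cd3g, Cd247 and Lcp2, against 19.3% of all genes with H3K4me3. With a q-value of at most 1e-05 it did so at 3 of them (Cd3d, Cd3g and Lcp2). EZH2 and N-MYC came together over that peak at the other 4 genes, against 55.2%. Where N-MYC is described as missing, the list has no call, and with unknown depth a weaker signal cannot be told apart from none.

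The peaks also differed in position. EZH2 summits lay downstream of the start at all 9 genes, from 268 bp at Zap70 to 1184 bp at Cd3d, with a median of 666 bp. Over the 5291 genes with EZH2 and no other Polycomb feature at the start, 84.3% had the summit downstream and the median distance was 310 bp. The strongest N-MYC summit lay at −128 bp from the start at Zap70, −3 bp at Lck, 231 bp at Lat and 679 bp at Fyn, where a weaker one lay at −74 bp. Thus 2 of 4 were downstream, against 59.7% of all genes with N-MYC. The strongest p300 summit was downstream at 4 of 9 genes, against 56.6%. H3K4me3 and H3K27ac summits were each downstream at 8 of 9, against 86.0% and 75.1%. Cd3d and Cd3g share their peak in each of the H3K4me3, H3K27ac and p300 lists, so the same summit is counted from both starts. It is the 1 upstream case for H3K4me3 (−1959 bp from Cd3d) and for H3K27ac (−2431 bp from Cd3g). For p300 it lies 1087 bp downstream of the Cd3d start and −2425 bp from that of Cd3g. EZH2 and N-MYC peaks overlapped by 159 bp at Fyn and by 2 bp at Zap70, and did not overlap at Lck and Lat. Among the 4206 genes with both and no other Polycomb feature at the start, they overlapped at 94.1%. The EZH2 summit lay downstream of the strongest N-MYC summit by 743 bp at Lck, 435 bp at Lat and 396 bp at Zap70 and upstream of it at Fyn, thus downstream at 3 of 4, against 74.4% of those genes.

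**Figure D3:**
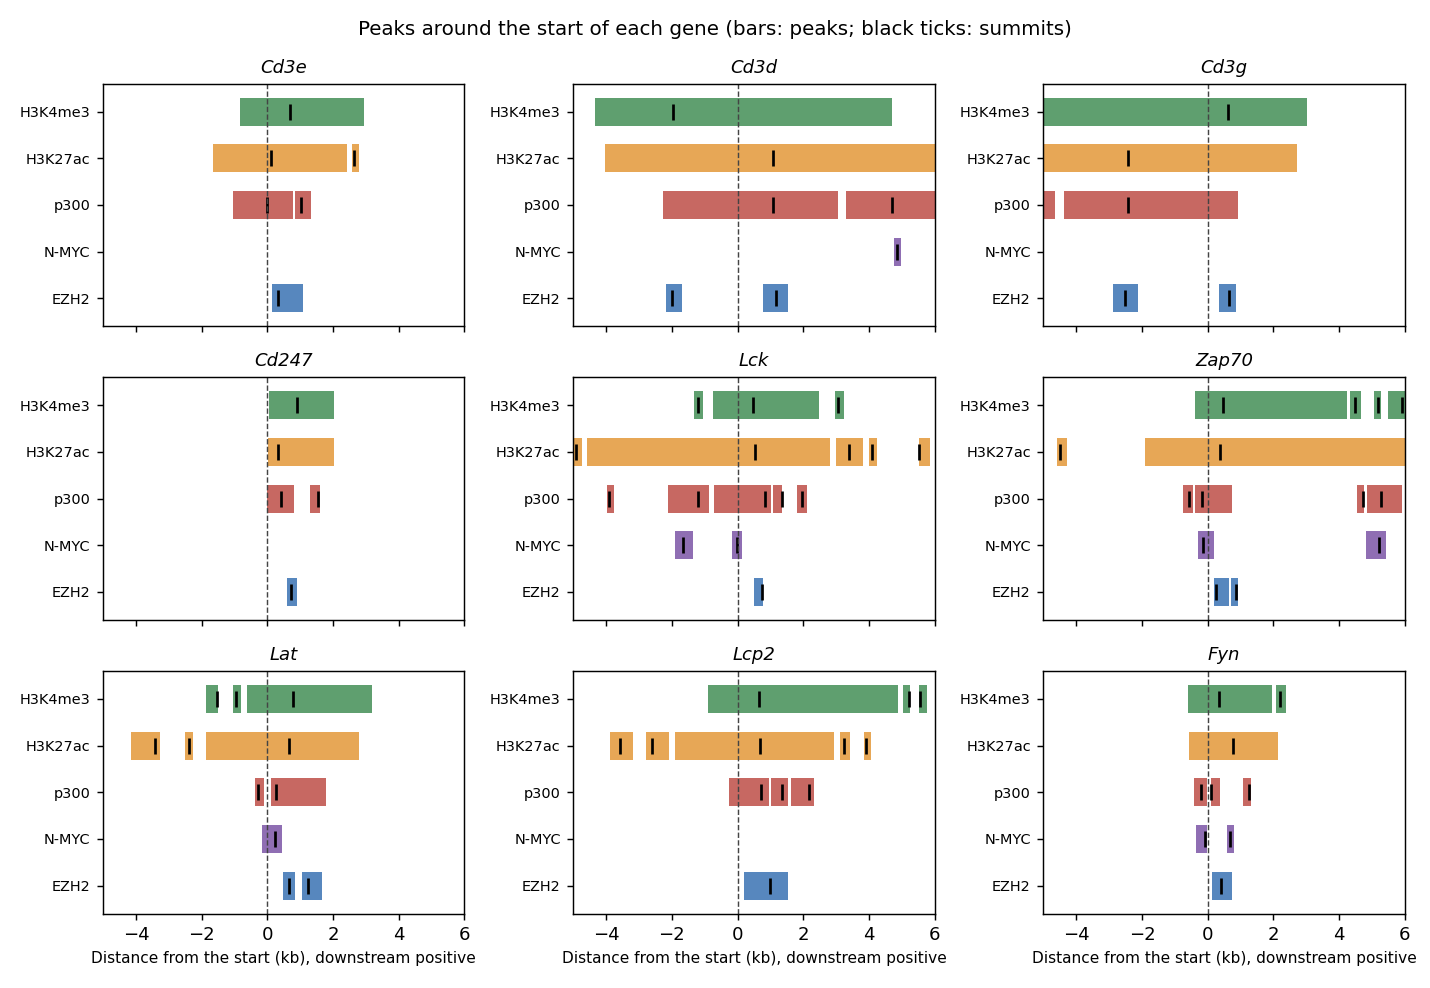
Peaks of the 5 lists with calls near these genes, by distance from the start in kb (downstream positive, dashed line at the start), 1 panel per gene; bars are peaks and black ticks their summits, and bars that pass the edge of a panel are clipped. The EZH2 bar nearest each start lies to its right, and N-MYC bars lie within 1 kb of it at Lck, Zap70, Lat and Fyn.

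Among the receptor chains, Cd3d and Cd3g lie head to head on chromosome 9, with starts 1338 bp apart, and are transcribed away from each other. They share 1 H3K4me3 peak (chr9:44977422-44986487), 1 H3K27ac peak and 1 p300 peak, so their values for these lists are a single measurement. EZH2 was called separately on the 2 sides, at chr9:44982556-44983308 inside Cd3d and at chr9:44979580-44980075 inside Cd3g. H3K27ac covered 100% of the Cd3d gene, p300 95.2% and H3K4me3 89.3%, each at or above the 98.3rd percentile of 21887 protein-coding genes. An N-MYC peak of 4.05 lay at the far end of Cd3d, with its summit 4858 bp from the start, next to a p300 summit of 8.28 at 4706 bp. Cd3e, whose start lies 27.9 kb from that of Cd3d, had its own H3K4me3 peak (chr9:45006706-45010503) and no N-MYC peak within 22.9 kb of its start.

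Cd247, which encodes the zeta chain, had 2 active starts. At the start of the gene record H3K4me3 fold enrichment was 14.2, and at the start in the promoter table, 8.73 kb downstream, it was 31.7. EZH2 was called at both, with 4.24 and 3.99, and H3K27ac reached 14.9 at both. N-MYC was called at the downstream start alone, at 3.21, so with every annotated start read 5 of the 9 genes had N-MYC. Further inside the gene a stretch of 12.7 kb of H3K27ac (fold enrichment 15.2) held p300 peaks of up to 5.77, H3K4me3 of 15.7 and an N-MYC peak of 3.74, and no EZH2. The start of the lncRNA gene Gm32999, on the opposite strand, lies 69174 bp from the start of Cd247, within that stretch. In all, 32 H3K27ac peaks covered 42.9 kb or 47.1% of Cd247, and 9 p300 peaks lay in it.

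Of the kinases, Lck also has 2 promoters in RefSeq, 15.3 kb apart. The first had H3K4me3 of 24.3, H3K27ac of 21.2, p300 of 7.21, N-MYC of 5.42 and EZH2 of 3.41. That p300 peak only reaches the window from upstream, with its summit at −1194 bp. The p300 peak over the start itself had 5.61, with its summit at 829 bp. The second had H3K4me3 of 13.9, H3K27ac of 16.0, p300 of 3.78 and EZH2 of 4.73, and no N-MYC. Thus Lck, like Cd247, had 1 start with N-MYC and 1 without. The first start had the higher H3K4me3, H3K27ac and p300 and the second the higher EZH2. Nothing was called between 6700 bp and 12974 bp from the first start in any of the 7 lists. A further H3K4me3 peak, of 38.3, lay beyond the end of Lck, at the edge of the neighbouring gene Hdac1.

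**Figure D4:**
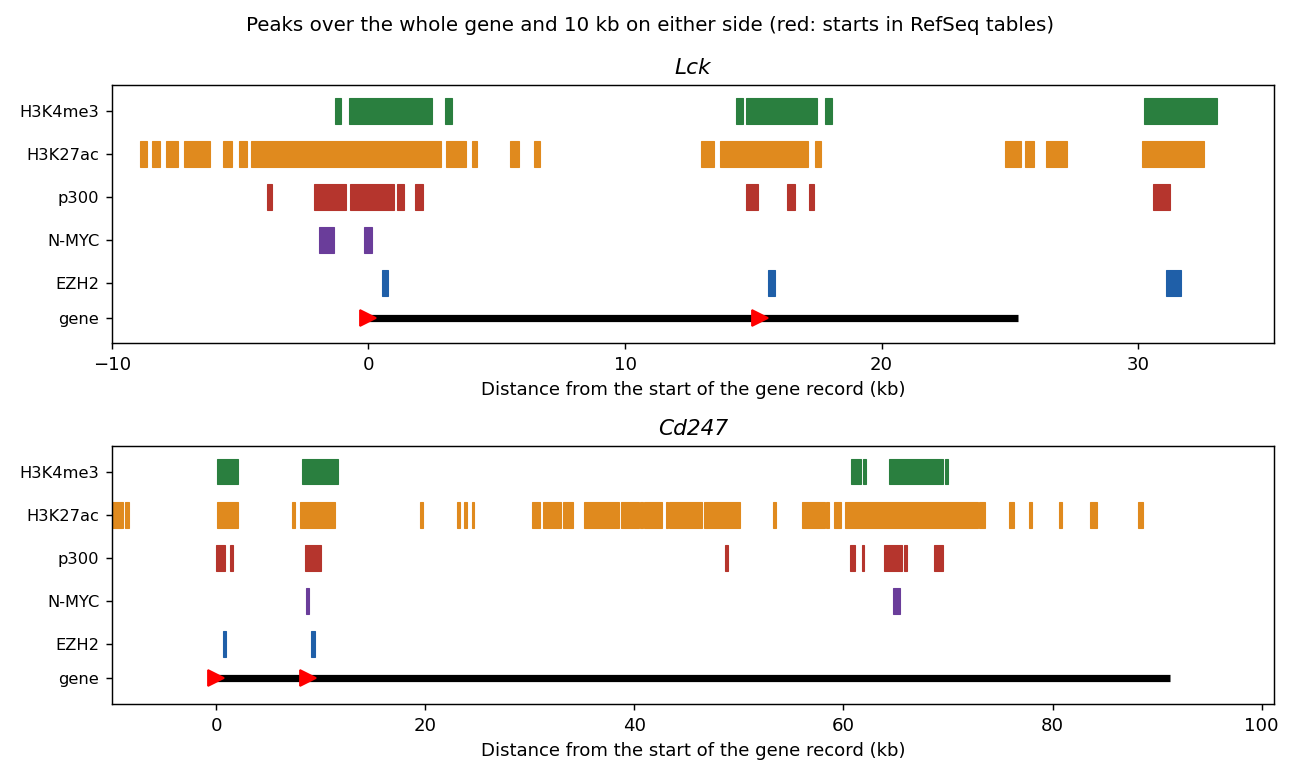
Peaks over the whole of Lck and Cd247 and 10 kb on either side, by distance from the start of the gene record in kb; coloured bars are peaks, the black line is the gene and red arrows are starts in the RefSeq tables. N-MYC is called at the first and not the second start of Lck, and at the second and not the first start of Cd247.

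Zap70, the kinase that docks on phosphorylated chains, had N-MYC of 7.15, the highest of the set, at chr1:36761510-36761981. A second N-MYC peak, of 3.27, lay 5.23 kb inside the gene beside a p300 peak of 3.23. RefSeq gives Zap70 a start 2.72 kb downstream, which lay in the same broad H3K4me3 and H3K27ac peaks with no p300, N-MYC or EZH2 peak of its own, and another 17.2 kb downstream with no peak in any list. Fyn, the longest gene at 196 kb, had the narrowest H3K4me3 and H3K27ac start peaks of the kinases. Its N-MYC, p300 and EZH2 peaks at the start lay within 1 kb of the start of the lncRNA gene Gm31616, which runs the other way from −131 bp. These peaks therefore cannot be assigned to 1 of the 2 starts. A further p300 peak, of 4.15 with its summit at 1254 bp, lay more than 1 kb from the Gm31616 start. An internal H3K27ac peak of 17.4 and 7.02 kb, 119 kb from the Fyn start, exceeded the 11.7 at the promoter and held 3 p300 peaks, with no H3K4me3, N-MYC or EZH2.

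Of the adaptors, Lat had N-MYC of 4.31 at chr7:126369264-126369862 and 2 EZH2 peaks, of which the one reaching the window had 3.44 and the next, with its summit at 1242 bp, 4.68. Lcp2 had the widest EZH2 peak of the set, 1348 bp (chr11:34047128-34048475). It held no N-MYC near the start. A weak N-MYC peak of 2.60 lay 17.3 kb inside the gene, under a 3.89 kb H3K27ac peak of 12.3.

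Over the gene bodies the Polycomb features were again missing. None of the 9 genes had a SUZ12 or H3K27me3 peak between its start and end, against 14.9% and 30.2% of all protein-coding genes, nor with 10 kb added on either side. The nearest H3K27me3 peak lay from 14.6 kb (Cd3e) to 355 kb (Fyn) from the start, and the nearest SUZ12 peak from 29.2 kb (Cd3e) to 1313 kb (Fyn). H3K4me3, H3K27ac, p300 and EZH2 were called in all 9 bodies, against 54.0%, 57.9%, 42.0% and 47.1% of all genes. The bodies include the start, so these counts take in the start peaks. Without the 1 kb around the start, H3K4me3 and H3K27ac stayed at 9 and p300 was called in 8 (not Cd3g). EZH2 was then called in 6 (Cd247, Cd3d, Cd3e, Lat, Lck and Lcp2). A start peak that reaches past 1 kb is still counted under that limit. This was so for EZH2 at Cd3d, Cd3e and Lcp2, which had no other EZH2 peak in the gene. Likewise, the only H3K4me3 peak in Cd3e, Cd3d, Cd3g and Lat was that of the start. The share of all genes was not computed for these 4 lists under that limit, so these counts cannot be called high or low. With lists of equal length EZH2 was called in 3 of the 9 bodies (Cd3d, Lat and Lcp2), against 35.6%. N-MYC was called in 7 of 9, Cd3e and Cd3g being without, against 35.3% of all genes. Without the 1 kb around the start it was 4 of 9 (Cd247, Cd3d, Lcp2 and Zap70), against 11.6% of the 17492 genes with a start, a share not matched for gene length. Long genes hold more peaks: Cd247 and Fyn had 32 and 29 H3K27ac peaks, over 47.1% and 11.1% of their length. Whether peaks were exonic or intronic was not analysed here.

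The rest of the pathway was read from a list of 44 further genes, of which 30 had a start in the tables. At those 30 starts H3K4me3 was called at 23, H3K27ac at 26, p300 at 20, EZH2 at 18, N-MYC at 14, and SUZ12 and H3K27me3 at 2 each. The full combination of the 3 active features with EZH2 and without Polycomb, found at all 9 genes above and at 28.6% of all genes, was found at 16 of the 30. Of those 16, 13 also had N-MYC. EZH2 without N-MYC or Polycomb, seen at 6.20% of all genes and at 5 of the 9, was seen at 3 of the 30. These were Vav1 (EZH2 5.05), a guanine nucleotide exchange factor, Dgka (8.80), a diacylglycerol kinase that limits the signal, and Sla2 (4.16), an adaptor that dampens it. The 2 starts with Polycomb were those of Dgkz, another diacylglycerol kinase (EZH2 9.60, SUZ12 6.46, H3K27me3 9.89), and Wipf1, a partner of the actin regulator WASP (EZH2 4.52, SUZ12 5.37, H3K27me3 17.5). The Wipf1 start also had H3K4me3 of 8.41, and the Dgkz start had none. Both genes also had H3K27ac and p300 within the gene, away from that start.

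Genes with the same tasks in other receptors had other patterns. Of 13 such genes 7 had a start in the tables, and none of the 7 had N-MYC or the full combination. Syk, the relative of Zap70 that serves the B-cell receptor, had EZH2 (10.5), SUZ12 (8.42) and H3K27me3 (16.8) with H3K4me3 of 4.29, and no H3K27ac, p300 or N-MYC. Blnk, the B-cell counterpart of Lcp2, had H3K27me3 of 4.97 and H3K4me3 of 4.49. Cd79a, a B-cell receptor chain, had H3K4me3 of 4.74 and H3K27ac of 5.29, Btk 4.34 and 5.22, and Fcer1g, an Fc receptor chain, had H3K27ac of 3.63 alone. Fgr, a Src-family kinase of myeloid cells, had H3K4me3 of 13.5 and H3K27ac of 8.55. Hcst, a chain that pairs with NK receptors, was the exception, with H3K4me3 of 39.0, H3K27ac of 14.8 and p300 of 4.40.

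**Figure D5:**
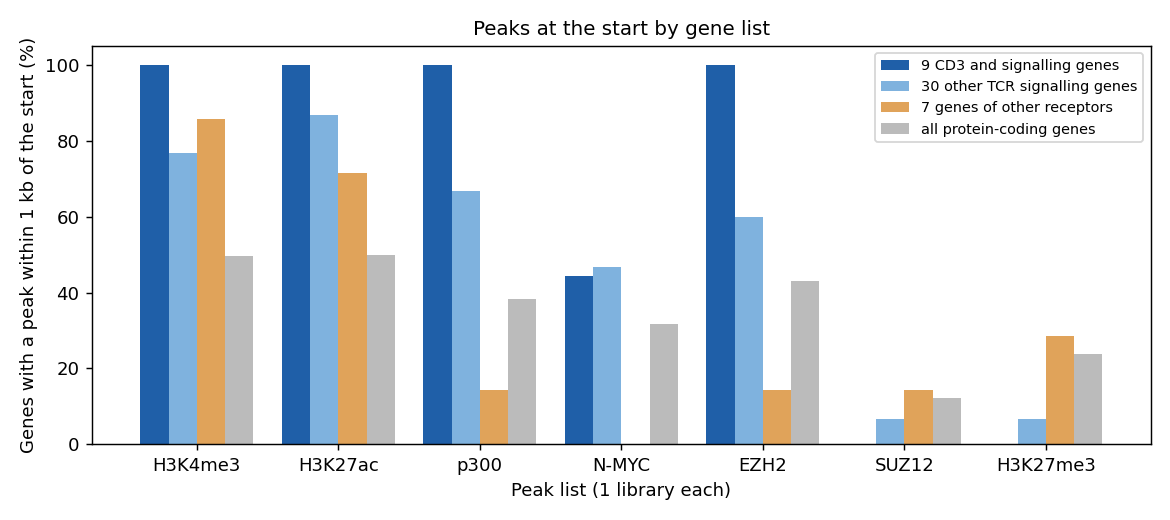
Share of genes (%) with a peak within 1 kb of the start, by peak list, for the 9 genes, the 30 other pathway genes and the 7 genes of other receptors that had a start, and all 17492 protein-coding genes. EZH2 is called at 100% of the 9 genes and at 43.1% of all genes, and N-MYC at none of the 7 genes of other receptors.

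Counterpart genes without a start in the tables were read over the gene body. Over its body Lyn, a Src-family kinase of B cells and myeloid cells, had EZH2 and H3K27me3 with H3K4me3 and H3K27ac. Blk had H3K27ac and H3K27me3. Cd79b had H3K4me3 and H3K27ac, and Tyrobp and Lat2 had H3K27ac alone. None of these 5 had p300 or N-MYC.

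The label of the cells was checked with marker genes at the 8 of 11 T-cell marker starts that could be read, 5 of them genes of this set: all 8 had H3K4me3, H3K27ac, p300 and EZH2. Of the 8, 0 had SUZ12 and 1 had H3K27me3 (Bcl11b, 4.69). Of 4 B-cell marker starts 2 had H3K4me3, 1 H3K27ac, 0 p300, 2 EZH2, 2 SUZ12 and 2 H3K27me3. Of 4 myeloid starts 1 had H3K4me3, 1 H3K27ac, 0 p300, 1 EZH2, 1 SUZ12 and 3 H3K27me3. Of 5 thymic epithelium starts 1 had H3K4me3 (Epcam, 19.3), 1 H3K27ac, 0 p300, 2 EZH2, 2 SUZ12 and 1 H3K27me3. Both erythroid starts had H3K4me3 and H3K27ac, and Klf1, an erythroid transcription factor, had the full combination without N-MYC (H3K4me3 19.8, H3K27ac 13.6, p300 3.66, EZH2 5.93). Of the erythroid starts 0 had SUZ12 and 1 had H3K27me3 (Epor, 5.58). Of 2 endothelium and stroma starts 0 had H3K4me3, H3K27ac or p300, 1 had EZH2, 1 SUZ12 and 2 H3K27me3. Every EZH2 call at the B-cell, myeloid, thymic epithelium, and endothelium and stroma starts came with SUZ12, unlike those at the T-cell starts and Klf1. These lists are short beside the shares of all genes (38.3% with p300), and the part of other cells in the libraries was not tested. Each list had between 9798 (N-MYC) and 123056 (H3K27me3) peaks.

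To place single genes among the rest, the genes nearest in the fold enrichments of the 7 lists at the start were found for 3 members (Euclidean distance over log2 of 1 plus fold enrichment, 0 where no peak was called). Nearest to Cd3e were Pdcd1 (distance 0.0901), the gene of the inhibitory receptor PD-1, then Ubr2 (0.132) and Uckl1 (0.178), all with EZH2 and without N-MYC. Pdcd1 had H3K4me3 of 33.2, H3K27ac of 17.8, p300 of 5.03 and EZH2 of 3.98. Nearest to Lck were Ftl1 (0.272), Uvssa (0.308) and Pip5k1c (0.313), and nearest to Zap70 were Cep83 (0.290), Rabl6 (0.304) and Mif (0.304). These 6 genes had N-MYC with EZH2. The neighbours were picked by these same values, so the calls they share with a member are not a separate result. Within the set, distances ran from 0.337 between Cd3d and Cd3g, which share peaks, to 3.21 between Cd247 and Zap70. Lat and Fyn were 0.430 apart and Lck and Zap70 0.547, while every distance between a gene with N-MYC and one without was at least 2.45, since a list without a call enters as 0.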

How the data were processed

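The data were 7 peak lists, 1 per immunoprecipitation, deposited without a header. Its fold enrichment (a linear ratio), −log10 p-value, −log10 q-value, summit and a whole-number score were taken as the authors deposited them, identified from the narrowPeak layout and the values. The smallest −log10 q was 2.00 to 2.08. The −log10 p-value and the score entered no result. The submitters' processing notes name FastQC, Bowtie2, SAMtools, MACS2 and deepTools, and builds mm10 and GRCm38. Versions, settings, pooling and the use of input are not given in the sources used here, and the depth is unknown.

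Gene records, strands, starts and promoter sequences came from RefSeq tables of GRCm38.p6. Of 21887 protein-coding genes on the autosomes, X and Y, 17492 had a strand and were read at the start (the 5′ end of the record), and all were read over the body. All 9 genes matched by symbol. As a check of the build, 43.3% of H3K4me3 summits lay within 1 kb of such a start. Overlaps were computed with Python 3.11.15, numpy 2.4.6 and pandas 2.3.3. On simulated data 100 of 100 planted peaks were found and 0 of 100 outside the window were called.

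The members and gene lists were chosen with earlier results of these data known. The text names the 9 genes, pathway genes with EZH2 without N-MYC or with Polycomb at the start, the counterpart genes (1 is not reported here), and the 3 genes nearest to each of Cd3e, Lck and Zap70. No test was possible with 1 library per antibody. Alternatives varied the window, the starts, the summit rule, the peaks used and the overlap.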

Additional observations from a re-analysis of the deposited data

How the results depend on the processing

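Over 15 counts of members, 101 alternative values were computed. Of these, 76 equalled the reported count, 95 stayed within 1.5 times of it and 6 moved further. Some of the 76 were fixed in advance: a count of 0 cannot fall, a count of 9 cannot rise, and equal length removes no N-MYC peak. The 6 concern EZH2 and N-MYC. EZH2 at the start fell from 9 to 4 at a q-value of at most 1e-05, to 4 at a fold enrichment of at least 4 and to 2 when every list was shortened to the length of the shortest (9798 peaks, by q-value), and over the gene body the last limit gave 3 (Cd3d, Lat and Lcp2). These 3 limits remove weak peaks by construction, and the depth of the EZH2 library is unknown. Within 500 bp of the start EZH2 was called at 6 genes, a limit on position that leaves out Cd3d, Cd247 and Lck. N-MYC over the gene body fell from 7 to 4 without the 1 kb around the start. EZH2 without N-MYC over the start H3K4me3 peak fell from 5 to 3 at a q-value of at most 1e-05. N-MYC at the start was 4 or 5 under all of its 8 alternatives, with Cd3d added at 5 kb and Cd247 with every annotated start. SUZ12 and H3K27me3 gave 0 members under every alternative run. Only the wider windows, the added starts and the added 10 kb could have raised these counts, since the other alternatives only remove peaks. No paired analysis was possible because each antibody had 1 library.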
